A study of Mus musculus with 8 samples.

Results

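The genes of the LINC complex, which links the nucleus to the cytoskeleton, were examined in cardiac fibroblasts of WT mice and of mice in which *Pdgfra-Cre* deletes *Lmna*. The members were the 8 genes *Sun1*, *Sun2*, *Syne1*, *Syne2*, *Syne3*, *Tor1a*, *Tor1aip1* and *Tor1aip2*, taken by gene symbol, by a rule that uses no measured value, from 18957 genes listed. All 8 passed the filter on low counts, which left 13036 genes for the test. RNA was sequenced from PDGFRA-positive, lineage-negative cells sorted from the ventricles of WT and *Pdgfra-Cre:LmnaF/F* mice aged 3 to 4 weeks on a mixed C57BL/6 background, as 4 libraries of each genotype. How many mice gave each library is not given in the sources used here, so p-values measure the spread between these libraries. The *Pdgfra-Cre:LmnaF/F* mice carried a Cre recombinase driven by a *Pdgfra* BAC transgene and exon 2 of both *Lmna* copies between loxP sites, and the WT mice were littermates with wild-type alleles only. Since the WT mice had no Cre and mice with *Pdgfra-Cre* alone were not analysed here, the transgene and the loss of *Lmna* cannot be told apart. The same PDGFRA that marked the cells for sorting is the gene whose regulatory region drives the Cre, and the Cre is known to be active in part of the cardiac myocytes as well.

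The LINC complex spans both membranes of the nuclear envelope. The SUN proteins sit in the inner membrane, touch the nuclear lamina of A-type and B-type lamins on the nucleoplasmic side, and hold the KASH peptides of the nesprins in the space between the membranes. The nesprins reach from the outer membrane to actin, to intermediate filaments through plectin, and to the microtubule motors kinesin and dynein. Torsin-1A, an ATPase of the same luminal space, needs the membrane proteins LAP1 and LULL1 to be active and acts on the LINC complex. In fibroblasts this chain is known for moving and anchoring the nucleus during migration and for passing mechanical force to the lamina, where lamin A/C, the product of *Lmna*, is a main source of nuclear stiffness.

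The depth of the libraries lay between 2080555 counts in WT replicate 2 and 12502949 counts in *Pdgfra-Cre:LmnaF/F* replicate 4, so the shallowest library carried the largest counting error. Values are CPM, counts divided by library sizes that TMM factors had adjusted, and a gene at 3 counts or fewer in a library was taken to be at the floor, which was 0.25 to 1.51 CPM. *Lmna*, the targeted gene, measured 331, 274, 483 and 374 CPM across WT replicates 1 to 4, against 126, 97.4, 130 and 90.4 CPM across *Pdgfra-Cre:LmnaF/F* replicates 1 to 4. It was 3.30-fold lower without overlap of the groups (log2 fold change -1.72, SE 0.22, edgeR adjusted p = 0.00492). The study reports LMNA protein as undetected in most, though not all, isolated PDGFRA-positive cells of this genotype. The *Pdgfra-Cre:LmnaF/F* libraries may therefore mix cells with and without LMNA. The 8 fibroblast markers summed to 47592 to 54911 CPM in the WT and 41063 to 56310 CPM in the *Pdgfra-Cre:LmnaF/F* libraries, and *Pdgfra* itself stood at 1275 to 2108 and 1807 to 2762 CPM. Of the 8, 3 had a positive and 5 a negative fold change, between -0.51 (*Col1a1*) and 0.36 (*Dcn*) on the log2 scale, with 0.30 for *Pdgfra*, and 0 passed the edgeR test. *Fbln1* had 945 to 1196 CPM in the WT and 721 to 919 CPM in the *Pdgfra-Cre:LmnaF/F* libraries, without overlap (edgeR unadjusted p = 0.0423, adjusted p = 0.401). *Pdgfra-Cre:LmnaF/F* replicate 4 stood apart, with 5827 CPM of the 8 cardiac myocyte markers against 329 to 1052 CPM in the other libraries and with 390 CPM of the 7 immune markers against 37.4 to 162 CPM. The myocyte marker *Tnnt2* had 429 CPM in that library and 10.2 to 62.9 CPM in the others, and the leukocyte marker *Ptprc* was at 0 to 12.9 CPM over all 8. The endothelial marker *Pecam1* had 49.8 to 68.2 CPM in the WT and 17.5 to 53.1 CPM in the *Pdgfra-Cre:LmnaF/F* libraries (edgeR adjusted p = 0.520), and *Cdh5*, of the same list, 40.8 to 62.8 and 8.13 to 38.3 CPM without overlap (edgeR unadjusted p = 0.00776, adjusted p = 0.215). Of the 6 endothelial markers 5 had a negative fold change, from -1.17 for *Cdh5* to -0.12 for *Tie1*, and *Cldn5* had one of 0.27. The macrophage marker *Csf1r* had 3.52 to 12.7 CPM in the WT and 9.0 to 44.7 CPM in the *Pdgfra-Cre:LmnaF/F* libraries (edgeR unadjusted p = 0.00763, adjusted p = 0.213), and *Cd68* had 0 to 11.6 and 3.86 to 27.9 CPM. The part of these cells in the values of the LINC genes was not tested. The sums of the endothelial (90.3 to 257 CPM), mural (203 to 392 CPM) and Schwann cell markers (0 to 7.71 CPM) overlapped between the genotypes. Those of the epicardial markers also overlapped, at 8.47 to 24.2 CPM in the WT and 4.48 to 10.5 CPM in the *Pdgfra-Cre:LmnaF/F* libraries. All 3 epicardial markers were low and had a negative fold change (exact two-sided permutation p of the sum = 0.0857). For all lists other than the dissociation response, the exact permutation p was 0.305 to 0.743 after adjustment over 8 lists. The 12 genes of the dissociation response, mostly immediate early genes with a pair of heat-shock genes, which cell isolation is known to induce, summed to 1633 to 4392 CPM in the WT and 5901 to 9501 CPM in the *Pdgfra-Cre:LmnaF/F* libraries. These ranges did not overlap (exact two-sided permutation p = 0.0286, the smallest that 4 against 4 libraries allow). Benjamini-Hochberg adjustment over 8 marker lists took it to 0.229, a value that the design fixes for a single list at the smallest p. All 12 had a positive fold change, and 9 of them were higher without overlap of the groups. Of all genes tested, 8.03% did not overlap in either direction. Of the 12, 1 passed the test per gene, *Ier3* (3.67-fold higher, edgeR adjusted p = 0.0221), against 0.407% of all genes, and *Fos* was 3.49-fold (adjusted p = 0.0757) and *Atf3* 4.52-fold higher (adjusted p = 0.0649).

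No LINC gene differed between the genotypes past the threshold. Of the 8 members, 0 had an edgeR adjusted p under 0.05, against 0.407% of all 13036 genes tested, and 0 had an unadjusted p under 0.05, against 11.9% of all genes. In 0 of the 8 did the groups of 4 libraries fail to overlap, against 8.03% of all genes. DESeq2 called 0 members after adjustment (1.63% of all genes) and 0 before it (10.2%), as it did with 1 RUVr factor (2.49% and 12.3% of all genes). For limma-voom with quality weights the counts were 0 after adjustment (0.967% of all genes) and 1 of 8, *Syne3*, before it, where 14.4% of all genes were called. The log2 fold change lay within 0.2 of 0 for 7 members, against 31.7% of all genes tested. Its absolute size had a median of 0.079 over the members and 0.34 over all genes. *Syne3* was the exception, with a log2 fold change of 0.71 whose absolute size was above that of 78.9% of all genes. These comparisons of size are not matched for level, and genes with low counts spread more. The median pooled SD of log2 CPM was 0.29 for genes at the level of *Syne1* and 0.50 at that of *Syne3*. Whether the members changed less than genes of their level was not tested. In bulk RNA, fewer cells that express a gene and less of its RNA per cell cannot be told apart.

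The members lie on 6 chromosomes of the mm10 build, with positions from GENCODE M21. *Sun1* (ENSMUSG00000036817.14) spans chr5:139200637-139249840 on the plus strand and *Sun2* (ENSMUSG00000042524.14) chr15:79724070-79742536 on the minus strand. *Syne1* (ENSMUSG00000096054.3) takes 530.6 kb at chr10:5020917-5551482 on the minus strand, with 40491 bp of merged exons. *Syne2* (ENSMUSG00000063450.14) takes 292.8 kb at chr12:75818134-76110926 on the plus strand, with 26726 bp of exons, and *Syne3* (ENSMUSG00000054150.12) only 79.9 kb at chr12:104929933-105009809 on the minus strand, with 5548 bp of exons. *Tor1a* (ENSMUSG00000026849.18) lies at chr2:30960627-30967933 on the minus strand and has the shortest exons of the 8, with 1995 bp. *Tor1aip1* (ENSMUSG00000026466.16, chr1:156004599-156036480, minus strand) and *Tor1aip2* (ENSMUSG00000050565.16, chr1:156035403-156068861, plus strand) overlap head to head and share 699 bp of exon on opposite strands, which is 12.93% of the exonic length of *Tor1aip1* and 7.58% of that of *Tor1aip2*. *Sun1* shares 302 bp (3.98%) and *Sun2* 147 bp (2.71%) with antisense genes. The libraries were strand-specific, but the strand setting used in counting is not given in the sources used here, so reads on these shared bases may not have been separated.

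Promoter windows of 300 bases, 250 before and 50 after a transcription start, were found in RefSeq (GRCm38.p6) for all 8 members, 16 windows in all. The GC box GGGCGG, the core of an SP1 site, was searched on both strands and was present in 8 of the 16 windows, or 50.0%, against 35.7% of all 32851 promoter windows. The windows are not independent, since overlapping windows of *Tor1aip2* hold the same GC box and are counted separately. A GC box occurred in a window of 6 of the genes, and *Syne3* and *Tor1aip1* had none. Below are the first windows of *Sun2*, which has the highest level per length, and of *Syne2* and *Syne3*, the KASH genes on chromosome 12, shown for the contrast in GC boxes. Capitals mark each GC box or its reverse complement CCGCCC.

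*Sun2*, chr15:79742487-79742786, minus strand: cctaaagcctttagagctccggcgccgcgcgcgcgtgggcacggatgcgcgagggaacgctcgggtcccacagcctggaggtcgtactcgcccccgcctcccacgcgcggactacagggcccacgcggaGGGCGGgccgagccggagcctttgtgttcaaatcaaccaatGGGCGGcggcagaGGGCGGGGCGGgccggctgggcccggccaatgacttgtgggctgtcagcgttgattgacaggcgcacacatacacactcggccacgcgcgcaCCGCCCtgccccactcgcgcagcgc

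*Syne2*, chr12:75818068-75818367, plus strand: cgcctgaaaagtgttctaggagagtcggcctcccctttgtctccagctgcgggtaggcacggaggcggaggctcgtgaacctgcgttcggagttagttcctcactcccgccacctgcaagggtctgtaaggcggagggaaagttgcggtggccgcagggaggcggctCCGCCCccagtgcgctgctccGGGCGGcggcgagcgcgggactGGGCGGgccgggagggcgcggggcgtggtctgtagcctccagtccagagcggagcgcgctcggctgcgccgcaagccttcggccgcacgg

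*Syne3*, chr12:104998628-104998927, minus strand: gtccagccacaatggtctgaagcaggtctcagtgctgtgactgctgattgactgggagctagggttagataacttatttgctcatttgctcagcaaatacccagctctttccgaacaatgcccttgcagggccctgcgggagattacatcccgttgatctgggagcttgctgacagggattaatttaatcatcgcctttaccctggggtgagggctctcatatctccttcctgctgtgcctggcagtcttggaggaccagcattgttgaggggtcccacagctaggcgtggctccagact

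The *Sun2* window holds 5 GC boxes, of which 1 pair overlaps, and 39 CpG dinucleotides at 71.3% GC. That of *Syne2* holds 3 GC boxes and 35 CpG dinucleotides at 71.0% GC. The *Syne3* window has no GC box, 5 CpG dinucleotides and 53.0% GC, near the medians of 7 CpG dinucleotides and 52.7% GC over all windows. This RefSeq start of *Syne3* lies inside the GENCODE span of the gene and not at its 5′ end. Other motifs were rarer, on both strands. The CRE TGACGTCA was in 0 of the 16 windows (1.79% of all windows), the AP-1 site TGACTCA in 1, of *Tor1aip1* (5.20% of all), and the TATA box TATAAA in 2, of *Sun1* and *Syne1* (13.6% of all). The E-box CACGTG was in 2 overlapping windows of *Tor1aip2* (7.15% of all), where its last base is the first base of a GC box. A match of letters is a description of the window and no evidence of binding.

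The levels in the WT fibroblasts were compared per kilobase of merged exon, since the members differ widely in length. *Sun2* stood highest, with a mean of 25.3 CPM per kb (range 19.5 to 31.5 over 4 libraries), above 86.6% of the 12988 tested genes with a known length. Next came *Tor1a* with 20.1 (15.9 to 25.1) and *Tor1aip2* with 17.2 (15.9 to 18.4) CPM per kb. *Sun1* had 12.2 (10.4 to 13.3) and *Tor1aip1* 11.1 (8.42 to 12.9) CPM per kb. The nesprins stood lowest, with 5.78 (5.22 to 7.25) for *Syne1*, 5.03 (3.86 to 6.07) for *Syne2* and 3.03 (1.82 to 4.81) CPM per kb for *Syne3*, which was above 33.2% of tested genes.

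Between neighbours in this order the ranges of the 4 WT libraries separated only from *Tor1aip2* to *Sun1* and from *Tor1aip1* to *Syne1*. The other neighbours did not differ beyond their spread per kilobase of merged exon. Which neighbours separate depends on the length used. Per kilobase of the longest coding transcript *Tor1aip2* and *Sun1* overlapped, while *Sun1* separated from *Tor1aip1*, and *Syne1* from *Syne2*. The order of the WT means was the same per kilobase of the longest coding transcript, a length chosen after the values were seen, although that length is 27908 bp for *Syne1* against 40491 bp of merged exon. The *Pdgfra-Cre:LmnaF/F* means kept *Sun2* first at 24.6, *Tor1a* next at 19.2, then *Tor1aip2* at 17.4, and *Syne3* last at 4.85 CPM per kb. The means of *Sun1* (11.5) and *Tor1aip1* (11.8) changed places there, as did those of *Syne1* (5.51) and *Syne2* (5.64), in each case by less than the spread of the libraries.

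**Figure D1:**
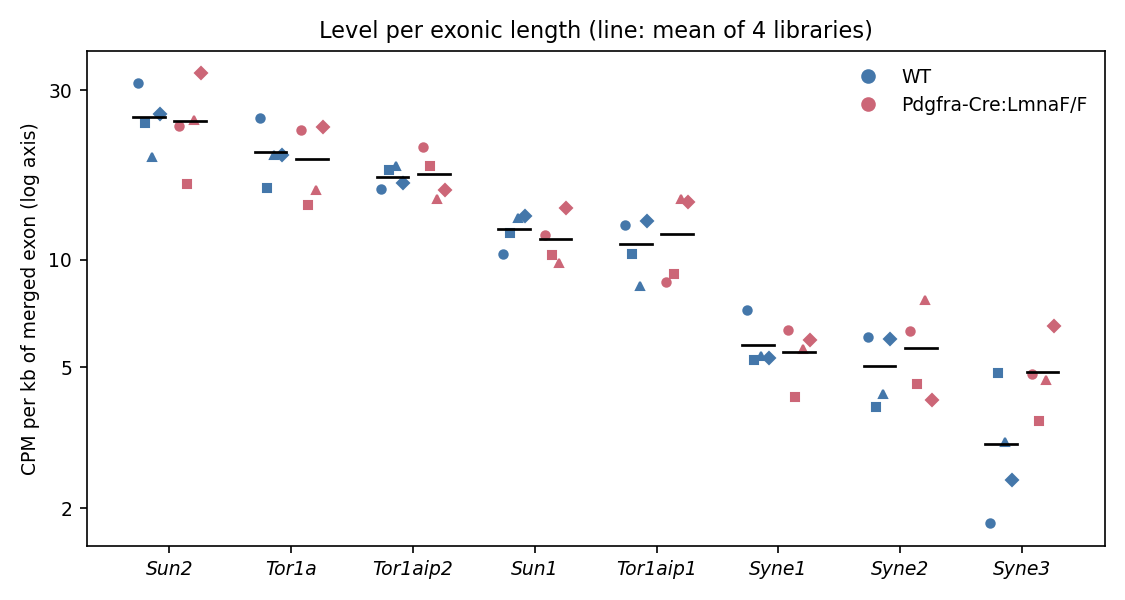
Level of each LINC gene in CPM per kilobase of merged exon, on a log axis, in the 4 WT (blue) and 4 *Pdgfra-Cre:LmnaF/F* (red) libraries, with symbols for replicates 1 to 4 and a line at each mean. *Sun2* is highest, at 25.3 in the WT, the nesprins lie lowest, and *Syne3* is last in both genotypes.

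The SUN genes encode the inner membrane side of the bridge, and their RNA was close to equal in the genotypes. *Sun1* measured 79.1, 90.6, 99.4 and 101 CPM across WT replicates 1 to 4, against 89.4, 78.3, 74.7 and 106 CPM across *Pdgfra-Cre:LmnaF/F* replicates 1 to 4. The lowest and the highest value were both in *Pdgfra-Cre:LmnaF/F* libraries, on either side of the WT range. The means were 92.6 ± 10.1 and 87.2 ± 14.2 CPM (SD, n = 4), a log2 fold change of -0.09 (SE 0.20, 95% interval -0.50 to 0.33, edgeR adjusted p = 0.919).

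*Sun2*, the closest relative of *Sun1*, varied more. It had 171, 131, 106 and 140 CPM in the WT and 129, 88.7, 134 and 182 CPM in the *Pdgfra-Cre:LmnaF/F* replicates. The WT values again lay inside the range of the other genotype. The log2 fold change was -0.04 (SE 0.23, 95% interval -0.54 to 0.46, edgeR adjusted p = 0.970). Replicate 4, the library with 5827 CPM of myocyte markers, was the highest *Pdgfra-Cre:LmnaF/F* library for both SUN genes, and without it the log2 fold changes were -0.20 for *Sun1* and -0.23 for *Sun2*. What the myocyte RNA adds to these values was not tested. The ratio of *Sun1* to *Sun2* counts within a library was 0.464 to 0.941 in the WT and 0.558 to 0.882 in the *Pdgfra-Cre:LmnaF/F* fibroblasts, ranges that overlapped.

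*Syne1* and *Syne2* encode the giant nesprins, nesprin-1 and nesprin-2, whose actin-binding ends reach into the cytoplasm. *Syne1* measured 293, 211, 217 and 214 CPM across WT replicates 1 to 4, against 258, 167, 227 and 241 CPM across *Pdgfra-Cre:LmnaF/F* replicates 1 to 4. WT replicate 1 stood above the 3 other WT libraries, which were within a few CPM of each other. The log2 fold change was -0.07 (SE 0.20, 95% interval -0.50 to 0.36, edgeR adjusted p = 0.943), and it turned to 0.06 without that library. *Syne2* had 162, 103, 112 and 160 CPM in the WT and 169, 120, 206 and 108 CPM in the *Pdgfra-Cre:LmnaF/F* replicates. In each genotype the values fell into a lower and a higher pair, and the lower pairs overlapped between the genotypes, while the higher *Pdgfra-Cre:LmnaF/F* pair lay above the higher WT pair. The log2 fold change was 0.16 (SE 0.24, 95% interval -0.36 to 0.68, edgeR adjusted p = 0.866). Without *Pdgfra-Cre:LmnaF/F* replicate 3, the highest library at 206 CPM, it was -0.03. The ratio of *Syne1* to *Syne2* counts was 1.78 ± 0.31 in the WT and 1.56 ± 0.48 in the *Pdgfra-Cre:LmnaF/F* libraries (SD, n = 4), and the groups overlapped. Since the deposited counts are per gene, the many short and long isoforms of these nesprins, with and without the KASH or actin-binding ends, could not be separated.

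*Syne3* encodes nesprin-3, which lacks the actin-binding domain and binds plectin, the cross-linker to intermediate filaments. It stood at 10.1, 26.7, 17.1 and 13.4 CPM across WT replicates 1 to 4, against 26.5, 19.5, 25.4 and 36.2 CPM across *Pdgfra-Cre:LmnaF/F* replicates 1 to 4. All but 1 of the WT values lay below all 4 *Pdgfra-Cre:LmnaF/F* values, and WT replicate 2 alone made the groups overlap. The means were 16.8 ± 7.17 CPM and 26.9 ± 6.90 CPM (SD, n = 4). The fitted fold was 1.63 (95% interval 0.964 to 2.77), or 0.71 on the log2 scale (SE 0.36, edgeR unadjusted p = 0.0657, adjusted p = 0.464), so the difference did not pass the test. The 0.964 to 2.77 interval includes no change and also an increase above 2-fold.

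WT replicate 2 was the shallowest library, and its 26.7 CPM rested on 53 counts, with an exact 95% Poisson interval of 20.0 to 34.9 CPM for counting error alone. The lower end of that interval lay above the 17.1 CPM of the next WT library and above 19.5 CPM, the lowest *Pdgfra-Cre:LmnaF/F* value. Without WT replicate 2 the WT mean was 13.5 ± 3.51 CPM (SD, n = 3), and the ratio of the group means went from 1.60 to 1.99. The groups then no longer overlapped, which follows from leaving out the only library that made them overlap. Of the 13570 genes tested in those 7 libraries 10.7% did not overlap, but for them the library was not picked in this way. This setting for the means was chosen after the values were seen. In the edgeR fit without that library the log2 fold change was 0.99 (unadjusted p = 0.0169, adjusted p = 0.424). Leaving out each of the 8 libraries in turn gave 0.53 to 0.99 with adjusted p of 0.420 to 0.736, and limma-voom with quality weights gave 0.99 (adjusted p = 0.154). *Syne3* was highest in *Pdgfra-Cre:LmnaF/F* replicate 4, and without that library its log2 fold change was 0.53 (edgeR adjusted p = 0.685). The summed dissociation response was also higher in the *Pdgfra-Cre:LmnaF/F* libraries, without overlap of the groups. The part of that response in the *Syne3* values was not tested.

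**Figure D2:**
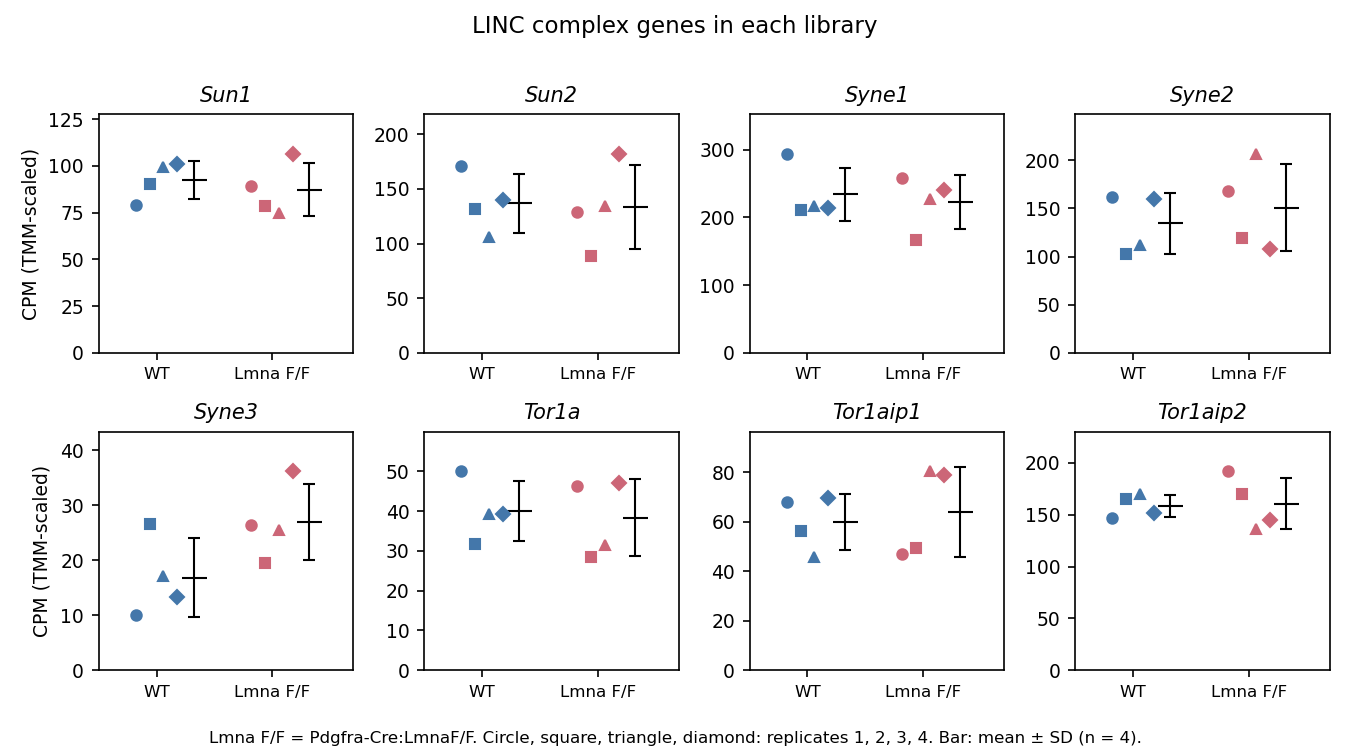
CPM of the 8 LINC genes in each library (4 WT in blue, 4 *Pdgfra-Cre:LmnaF/F* in red, symbols for replicates 1 to 4), with the mean ± SD of each group. The groups overlap for all 8 genes, and for *Syne3* only WT replicate 2, at 26.7 CPM, reaches into the *Pdgfra-Cre:LmnaF/F* range of 19.5 to 36.2 CPM.

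The torsin arm regulates the bridge from the luminal side. *Tor1a*, which encodes torsin-1A, the ATPase altered in DYT1 dystonia, measured 50.0, 31.7, 39.3 and 39.3 CPM across WT replicates 1 to 4, against 46.2, 28.6, 31.4 and 47.1 CPM across *Pdgfra-Cre:LmnaF/F* replicates 1 to 4. Its groups overlapped over most of their range. The log2 fold change was -0.07 (SE 0.26, 95% interval -0.62 to 0.48, edgeR adjusted p = 0.953). *Tor1aip1* encodes LAP1, the activator of torsin in the inner nuclear membrane, which also binds lamins. It had 67.8, 56.4, 45.5 and 69.5 CPM in the WT and 47.0, 49.3, 80.2 and 78.9 CPM in the *Pdgfra-Cre:LmnaF/F* replicates. The *Pdgfra-Cre:LmnaF/F* libraries fell into 1 pair at the low end of the WT range and 1 pair above it, and the log2 fold change was 0.09 (SE 0.25, 95% interval -0.44 to 0.62, edgeR adjusted p = 0.935).

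*Tor1aip2* encodes LULL1, the activator of torsin in the endoplasmic reticulum. It stood at 146, 165, 170 and 152 CPM across WT replicates 1 to 4, against 192, 170, 137 and 145 CPM across *Pdgfra-Cre:LmnaF/F* replicates 1 to 4. The WT libraries lay inside the range of the other genotype, and the log2 fold change was 0.02 (SE 0.18, 95% interval -0.37 to 0.42, edgeR adjusted p = 0.978). The ratio of *Tor1aip1* to *Tor1aip2* counts was 0.383 ± 0.094 in the WT and 0.417 ± 0.174 in the *Pdgfra-Cre:LmnaF/F* libraries (SD, n = 4), and the groups overlapped. Both counts may hold reads of the 699 shared bases.

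**Figure D3:**
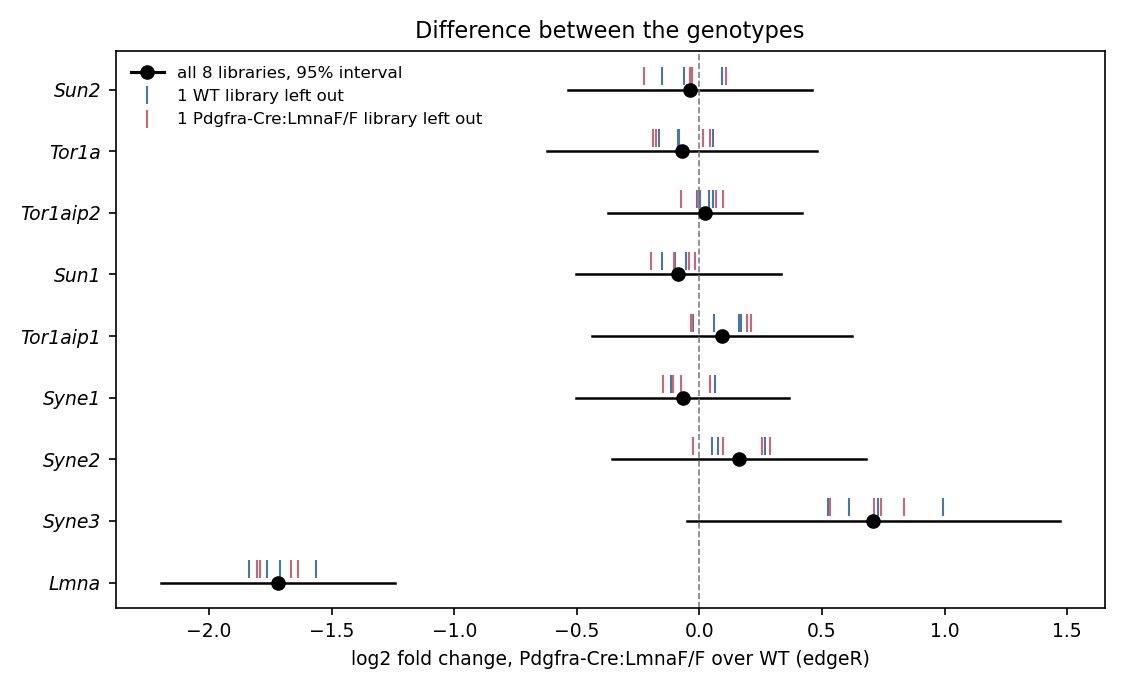
Log2 fold change, *Pdgfra-Cre:LmnaF/F* over WT, of the 8 LINC genes and *Lmna* (points, edgeR, all 8 libraries) with 95% intervals (lines), and the value with each WT (blue ticks) or *Pdgfra-Cre:LmnaF/F* (red ticks) library left out. The intervals of all 8 LINC genes include 0, that of *Syne3* by the least (-0.05 to 1.47), while that of *Lmna* lies between -2.20 and -1.24.

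For the 7 members other than *Syne3*, the 95% intervals of the log2 fold change reached from -0.62 (*Tor1a*) to 0.68 (*Syne2*), and the narrowest was that of *Tor1aip2*, from -0.37 to 0.42. The steadiest genes over the libraries were *Tor1aip2*, with a pooled SD of 0.17 on the log2 CPM scale, and *Sun1*, with 0.20. Only 11.7% and 12.6% of genes of a similar level varied less. *Sun2* (SD 0.36) and *Syne2* (SD 0.39) varied more than 68.9% and 76.2% of genes of their level. *Syne3* had the largest SD, 0.49, close to the median of 0.50 for genes of its level.

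The genes whose centred log2 CPM followed a member most closely over the 8 libraries were named by the root-mean-square difference, without a test. For *Sun1* they were *Pip5k1a* (0.078) and *Sf3b2* (0.079), and for *Sun2* they were *Flywch1* (0.11) and *Pik3r2* (0.12). *Smarca2* (0.091) and *Pex14* (0.11) were nearest to *Syne1*. *Syne2* was followed most closely by *Ggps1* (0.14) and by *Emd* (0.15), the gene of emerin, an inner membrane protein that binds lamin A/C and nesprins. For *Syne3* the nearest were *Shq1* (0.21) and *Bcl2* (0.25), farther off than for any other member. The nearest to *Tor1a* was *Parp6* (0.11), followed by a symbol listed in the form of a date. For *Tor1aip1* only *Rad21* (0.13) is given, and *Tor1aip2* had *Rbm6* (0.076) and *P4hb* (0.077). The median difference over all genes was 0.52 to 0.77, depending on the member.

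Genes that act on either side of the bridge were read from 5 lists, of which 39 genes were listed and 34 tested. Of the 34, 0 passed the edgeR threshold. At an unadjusted p under 0.05, 1 was higher and 4 were lower in the *Pdgfra-Cre:LmnaF/F* fibroblasts, 5 of 34 against 11.9% of all genes. DESeq2 called 0 of 39 after adjustment and 6 before it (10.2% of all genes), and limma-voom 0 of 34 after adjustment and 5 before it (14.4% of all genes). The median log2 fold change was -0.02 over the 34 and 0.02 over all genes. Apart from the gene with the lowest p of each list and direction, the genes named from these lists (*Syne4*, *Sun5*, *Ccdc155*, *Lrmp*, *Tmem201*, *Tor1b*, *Lmnb1*, *Plec*, *Vim*, *Klc1*, *Dync1i2*, *Kif5b* and *Dync1h1*) were chosen after their values were seen.

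Of the other SUN and KASH genes 6 were listed, 3 were tested and 0 passed. The list also held *Kash5* and *Irag2*, newer names of the listed *Ccdc155* and *Lrmp*, and *Sun3*, which was not analysed here. *Spag4*, which encodes the SUN4 protein of the testis, had 25, 0, 1 and 21 counts in the WT and 49, 95, 16 and 56 counts in the *Pdgfra-Cre:LmnaF/F* libraries (edgeR adjusted p = 0.514). The level was under 10 CPM in every library, and the groups overlapped. *Syne4*, encoding nesprin-4, reached at most 23 counts, and *Sun5*, *Ccdc155* and *Lrmp* were too low to be tested, with at most 28 counts in a library. *Tmem201*, which encodes the inner membrane protein SAMP1, had 23.2 ± 4.59 and 29.4 ± 10.1 CPM (SD, n = 4).

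All 4 other torsin genes were tested and 0 passed. *Tor2a* had a log2 fold change of -0.25 (SE 0.26, edgeR adjusted p = 0.794) and *Tor3a* one of 0.09 (SE 0.26, edgeR adjusted p = 0.943). Per kilobase, *Tor1b* at 19.9 CPM stood beside *Tor1a* at 20.1 CPM in the WT. The nucleoplasmic partners were 3, and 0 passed. The genes of the B-type lamins, *Lmnb1* and *Lmnb2*, had means of 12.3 and 16.8 CPM in the WT and 11.1 and 12.3 CPM in the *Pdgfra-Cre:LmnaF/F* fibroblasts, with an edgeR adjusted p of 0.964 and 0.860. *Emd* was level, with 75.6 ± 12.1 and 75.7 ± 19.7 CPM (SD, n = 4), while *Lmna* fell by 1.72 on the log2 scale.

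Of the 7 actin and intermediate filament partners, 0 passed and 5 had a negative fold change. *Fscn1*, encoding the actin bundler fascin that binds nesprin-2, had 139 ± 52.3 CPM in the WT and 76.1 ± 33.4 CPM in the *Pdgfra-Cre:LmnaF/F* fibroblasts (log2 fold change -0.87, SE 0.35, edgeR adjusted p = 0.347). *Fhod1*, a formin that also binds nesprin-2, had 8.39 ± 3.97 and 11.9 ± 4.78 CPM (edgeR adjusted p = 0.798). *Plec*, which encodes plectin, measured 177, 393, 276 and 249 CPM across WT replicates 1 to 4, against 193, 203, 112 and 214 CPM across *Pdgfra-Cre:LmnaF/F* replicates 1 to 4 (log2 fold change -0.60, SE 0.26, edgeR unadjusted p = 0.0375, adjusted p = 0.387). The *Vim* mean, for the filament protein vimentin, was 2479 CPM in the WT and 2239 CPM in the *Pdgfra-Cre:LmnaF/F* libraries.

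The ratio of *Syne3* to *Syne2* counts was 0.062 to 0.259 in the WT and 0.123 to 0.334 in the *Pdgfra-Cre:LmnaF/F* libraries, 1.40 times as high by the means, and the groups overlapped. The within-library ratio of *Syne3* to *Plec* counts was chosen after the values of both were seen and is given as a description. It was 0.057, 0.068, 0.062 and 0.054 in WT replicates 1 to 4 and 0.138, 0.096, 0.226 and 0.169 in *Pdgfra-Cre:LmnaF/F* replicates 1 to 4. WT replicate 2, which was high in both genes, lay close to the other WT libraries in their ratio, and the groups did not overlap. The means were 0.060 ± 0.0062 and 0.157 ± 0.055 (SD, n = 4), 2.62 times as high in the *Pdgfra-Cre:LmnaF/F* fibroblasts. Of 13035 genes set over *Plec* in the same way, 8.18% did not overlap, 1018 of them higher and 48 lower, so many genes separated from *Plec* in this way.

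**Figure D4:**
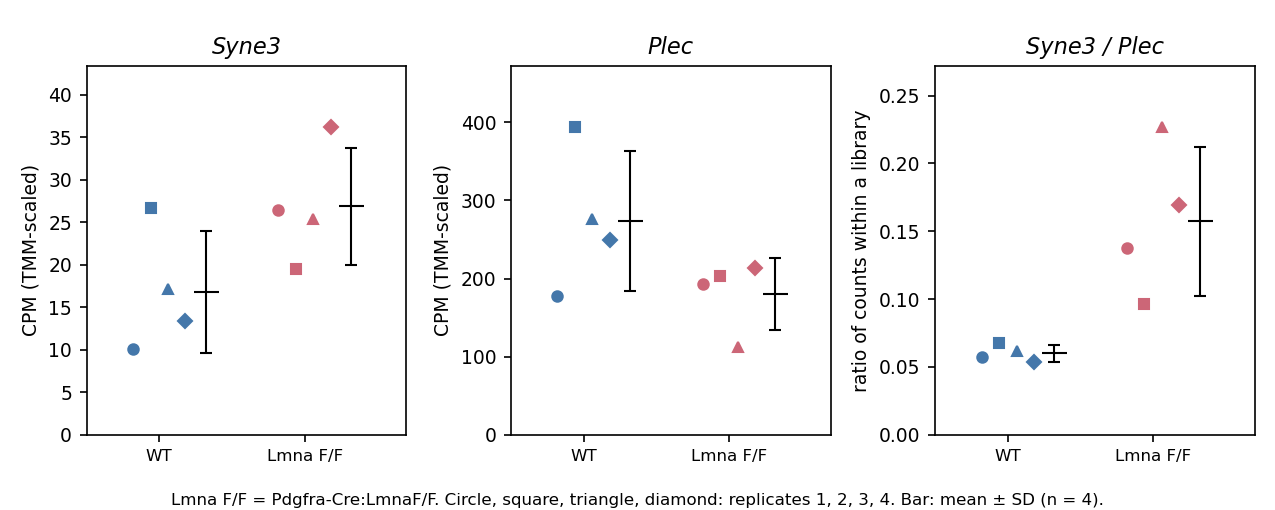
*Syne3* and *Plec* in CPM and the ratio of their counts within a library, in 4 WT (blue) and 4 *Pdgfra-Cre:LmnaF/F* (red) libraries, with symbols for replicates 1 to 4 and the mean ± SD. The genotypes overlap for each gene alone, while the ratio is at most 0.068 in the WT and at least 0.096 in the *Pdgfra-Cre:LmnaF/F* libraries.

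Of the 19 kinesin and dynein partners, 17 were tested and 0 passed, with 10 positive and 7 negative fold changes. The groups of 4 libraries did not overlap for 4 of the 17, against 8.03% of all genes. Each of the other context lists had 0 such genes, so the count over all lists was 4 of 34 tested. *Kif5c*, a heavy chain of kinesin-1, was low, with 2.12 ± 0.65 CPM in the WT, where replicate 2 was at the floor of 3 counts, and 7.37 ± 1.82 CPM in the *Pdgfra-Cre:LmnaF/F* fibroblasts (edgeR adjusted p = 0.361). *Bicd2*, a dynein adaptor, had 112 ± 8.25 and 78.3 ± 11.9 CPM (log2 fold change -0.52, SE 0.19, edgeR adjusted p = 0.287). *Klc1*, the kinesin light chain that nesprin-2 binds, had 198 ± 15.0 and 129 ± 41.4 CPM (edgeR adjusted p = 0.297), and *Dync1i2*, an intermediate chain of dynein, 123 ± 12.6 and 154 ± 20.8 CPM (edgeR adjusted p = 0.539). The abundant motor genes *Kif5b*, with 174 CPM in each genotype, and *Dync1h1*, with 836 and 770 CPM, overlapped between the genotypes.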

How the data were processed

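RNA from sorted cardiac fibroblasts was analysed as 4 WT and 4 *Pdgfra-Cre:LmnaF/F* libraries, grouped by the genotype in the sample labels. The authors depleted ribosomal RNA from total RNA with a RIN above 8, prepared strand-specific libraries, sequenced 150 bp paired-end reads, aligned them to mm10 with HISAT2 and counted them per GENCODE gene with featureCounts. The deposited values are whole-number counts that the authors left unscaled. The lowest total over the 8 libraries is 4 counts, so rarer genes are not listed. The GENCODE release and the strand setting of the counting are not given in the sources used here. Gene positions and lengths were taken from GENCODE M21, and promoters from RefSeq (GRCm38.p6).

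The genotypes were compared with edgeR 4.0.16 in R 4.3.3 (TMM, filterByExpr, quasi-likelihood test, genotype as the only term, Benjamini-Hochberg over all genes tested, threshold 0.05). The methods of the study name RUV and DESeq2, which were run as alternatives (DESeq2 1.42.0, also with 1 RUVr factor, computed here from edgeR residuals because the methods name no RUV variant, so it is not the procedure of the study), along with limma-voom (limma 3.58.1), RLE factors, no filter, at least 10 counts in every library, the replicate block, each library left out in turn and comparison with genes of like length. Marker sums were compared with exact permutation tests over 70 assignments. The likeness of genes used log2 CPM with a prior count of 2.

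Named genes were the members, *Lmna*, the lowest p in each direction of each context list, marker genes and the 2 genes most like each member, and the other context and marker genes with values were chosen after their values were seen. For *Tor1aip1*, 1 of its 2 most alike genes is not reported here. The rule for the members uses no measured value, but members and lists were chosen with earlier results of these data known. After the values were seen, the longest coding transcript as length, the *Syne3* to *Plec* ratio and group means without WT replicate 2 were added. Depths cover counting error only. The labels do not say that same-numbered libraries are pairs.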

Additional observations from a re-analysis of the deposited data

Results flagged for a closer look

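Groups of 4 libraries were screened for a value that stands far from the other 3, and 3 of 60 groups had one, where chance gives about 1 in 20. *Syne1* had 293 CPM in WT replicate 1, and the next WT library had 217 CPM. In *Pdgfra-Cre:LmnaF/F* replicate 4 the cardiac myocyte markers summed to 5830 CPM, with 913 CPM in the next library of the group. The immune markers summed to 390 CPM in that same library, with 91.8 CPM in the next.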

How the results depend on the processing

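Of the LINC genes 0 passed the threshold in any of 15 alternative settings, as did 0 context genes, and *Lmna* kept its call in all 15. The count of all genes past the threshold, 53 (22 higher, 31 lower), was 309 (134 higher, 175 lower) with DESeq2, 472 (281 higher, 191 lower) with 1 RUVr factor, 126 (63 and 63) with limma-voom and 274 (126 higher, 148 lower) without a filter, and 13 to 76 with 1 library left out, lowest without WT replicate 4. The cause was not tested. The sign of small fold changes was not stable. *Tor1aip1* was -0.13 with limma-voom and *Tor1aip2* -0.027 relative to genes of like length. With 1 library left out the log2 fold change ranged from -0.23 to 0.11 for *Sun2*, -0.15 to 0.062 for *Syne1*, -0.028 to 0.29 for *Syne2*, -0.19 to 0.056 for *Tor1a*, -0.033 to 0.21 for *Tor1aip1* and -0.077 to 0.10 for *Tor1aip2*. *Sun1* and *Syne3* kept their sign in all settings. The log2 difference of the marker sums ranged from -0.43 (without *Pdgfra-Cre:LmnaF/F* replicate 4) to 0.95 for cardiac myocytes and from -0.31 (without the same library) to 0.74 for immune cells, where it was -0.080 without WT replicate 4. With the replicate number as a block 36 genes passed, 26 of them among the 53, and *Syne3* had 0.76 (edgeR adjusted p = 0.562). Same-numbered libraries did not deviate together (r from -0.03 to 0.04), and 1 of the 4 WT libraries correlated best with its own number, so the numbers were not taken as pairs. In the shallowest library *Syne3* had 53 and *Tor1a* 63 counts, the fewest of the members there, so their values carry the most counting error.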
